A study of Mus musculus with 4 samples.

Results

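Cultured articular chondrocytes that lacked the miR-23 clusters were compared directly with cultured articular chondrocytes that lacked miR-26a. The comparison used 2 of the 4 RNA-sequencing libraries of the series, 1 from Cart-miR-23clus KO cells and 1 from miR-26a KO cells. Of 55141 genes with a deposited expression value, the 6858 genes with 20 or more reads in each of these libraries were ranked by the ratio of their TPM values, Cart-miR-23clus KO over miR-26a KO. TPM is an expression level, the reads of a gene divided by its length and scaled to the same total in every library. The ranked genes held 94.7% of the reads on genes in Cart-miR-23clus KO against 94.9% in miR-26a KO, and 6680 of them code for proteins.

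Both cultures came from femoral heads of C57BL/6 mice at 3 weeks of age, digested with 3.5 mg/ml collagenase. Cart-miR-23clus KO cells carried Col2a1-cre and homozygous floxed (flox/flox) miR-23a/b clusters, so that deletion depends on Cre from a promoter of the type II collagen gene and is limited to cells that use, or once used, that promoter. In contrast, the miR-26a KO cells had the genotype miR-26a -/-, which names no Cre, so its deletion is not tied to a cell type. No label states if this culture was transfected with the negative control siRNA that served as the control for the mimic. The wild-type library and the library of miR-26a KO cells transfected with a miR-26a mimic (strain label C57BL6/J) entered none of these ratios, and their values are given for orientation only. The sample label says wild type, a term that the results of the study also use, whereas its methods speak of a control with floxed miR-23a/b clusters.

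A microRNA guides the silencing complex to messenger RNAs that pair with its seed, the bases from position 2 to position 8, and usually lowers the level of those messengers. Loss of a microRNA is therefore known to raise some of its targets, together with many genes downstream of them. The miR-23a and miR-23b clusters each encode a member of the miR-23, miR-27 and miR-24 families, whereas miR-26a is made from 2 separate loci inside genes for small phosphatases. In cartilage, such microRNAs have been studied as regulators of the matrix that chondrocytes make and of the enzymes that break it down.

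The mature sequences below are shown because the pair of knockouts removed different seeds. They are from RefSeq on GRCm38.p6, written 5′ to 3′ with the seed in capitals. The miR-23a-3p gene is at chr8:84208563-84208583, miR-27a-3p at chr8:84208727-84208747, miR-27b-3p at chr13:63300760-63300780, and miR-24-3p at chr8:84208875-84208896 and chr13:63301251-63301272. The 2 copies of miR-26a-5p lie at chr9:119031811-119031832 and chr10:126995543-126995564, all of these on the plus strand.
mmu-miR-23a-3p: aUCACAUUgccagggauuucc
mmu-miR-27a-3p: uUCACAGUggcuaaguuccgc
mmu-miR-27b-3p: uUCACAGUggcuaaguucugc
mmu-miR-24-3p: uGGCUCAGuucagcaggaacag
mmu-miR-26a-5p: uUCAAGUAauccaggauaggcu
mmu-miR-26b-5p: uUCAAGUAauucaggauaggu
The miR-27a-3p and miR-27b-3p sequences differed at 1 of 21 bases, outside the seed. The genotype label names miR-26a and not miR-26b, which is included because it has the same seed and differed from miR-26a-5p at 2 of the first 21 bases. Also in the miR-23 family is mmu-miR-23b-3p.

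The authors sequenced the 3′ ends of messenger RNAs (QuantSeq) as single-end reads of 75 bases. Reads on genes numbered 1336496 in Cart-miR-23clus KO against 1369924 in miR-26a KO, and from 76.45% to 83.24% of the reads had aligned in the 3 libraries for which this is given. All 9 microRNA genes of the deleted families and of miR-26b had 0 reads in both libraries, as such libraries do not capture them, so the deletions themselves could not be checked. Both cultures carried chondrocyte markers. Type II collagen gene Col2a1 was at 5452 TPM in Cart-miR-23clus KO against 5565 TPM in miR-26a KO, and Sox9, the master transcription factor of chondrocytes, was at 468 and 496 TPM, while other cartilage genes differed in both directions. Markers of red blood cells had 0 reads in both, and no skeletal muscle marker reached 20 reads. With 1 library per condition there is no replicate check and no test between the conditions. The intervals given are exact Clopper-Pearson intervals at 95%, scaled to the TPM ratio, and cover counting error only. For a gene with 0 reads, the share it could still hold is up to 0.000224% in Cart-miR-23clus KO and up to 0.000219% in miR-26a KO.

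The 2 knockout libraries were alike for most genes. Of the 6858 genes, 65.7% had a ratio between 0.8 and 1.25, the median log2 ratio was -0.05 and its SD across genes was 0.40. A ratio above 2 was found for 83 genes, or 1.21%, and a ratio below 0.5 for 79 genes, or 1.15%. On counting error alone, 563 genes (8.21%) had a lower limit above 1, 800 genes (11.7%) had an upper limit below 1, and the interval held 1 for 5495 genes. All 83 and all 79 genes past 2-fold had intervals that left out 1, but the minimum of 20 reads fixes this. Even 40 against 20 reads (Mustn1) gave a lower limit of 1.14, and 20 against 41 (Ptpn12) an upper limit of 0.854. The whole interval lay above 2 for 24 genes and below 0.5 for 18 genes. The spread was wider where reads were few: among the 2830 genes with at least 20 and under 50 reads in the lower library the SD of the log2 ratio was 0.47, and at higher reads it was 0.36 (50 to 100 reads), 0.34 (100 to 200), 0.37 (200 to 500) and 0.32 (342 genes with 500 or more). Just inside the read minimum, with 20 reads in miR-26a KO, were Tap2 (ratio 3.16) and Rtp4 (2.91), and just outside it, with 19 reads, were Gm5905 (9.55) and C1qa (3.69). At the fold itself, Speg (2.01) and Prrx1 (0.496) were just past it, and Slc22a17 (0.501) was just short of it on the lower side.

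**Figure D1:**
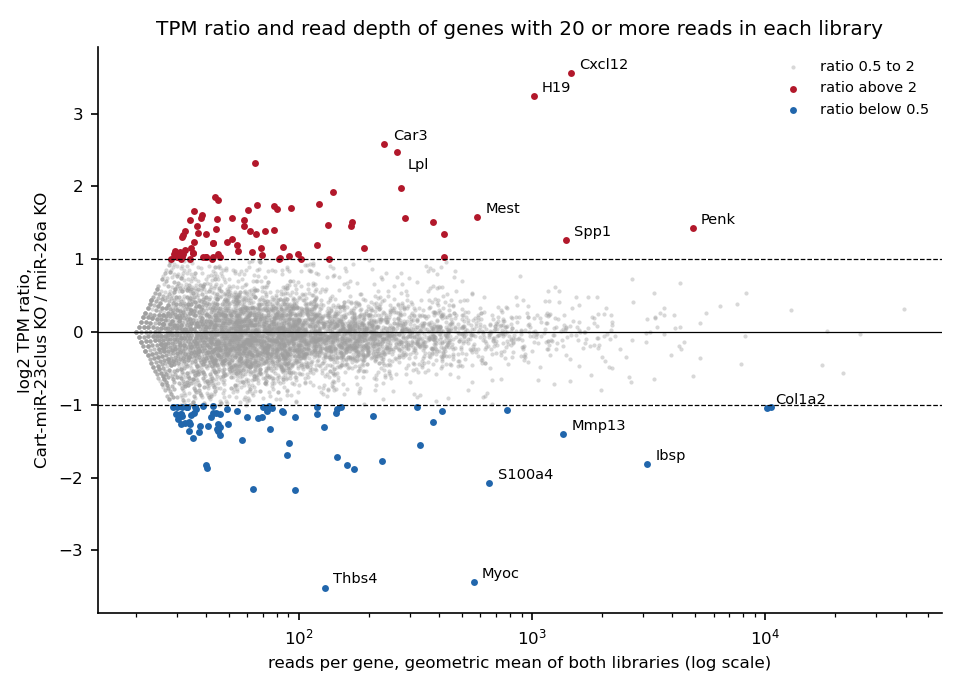
Each point is 1 of the 6858 genes, with the geometric mean of its reads in both libraries on the x axis (log scale) and the log2 TPM ratio, Cart-miR-23clus KO over miR-26a KO, on the y axis. Dashed lines mark 2-fold, past which lie 83 red genes above and 79 blue genes below, and the cloud is widest at few reads.

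Cxcl12, which encodes a chemokine that attracts and retains cells bearing the receptor CXCR4, had the highest ratio. It was at 2831 TPM in Cart-miR-23clus KO, 240 TPM in miR-26a KO, 390 TPM in wild type and 278 TPM in the mimic library. The ratio was 11.8 (95% interval 10.7 to 13.1, from 5045 and 428 reads). Cart-miR-23clus KO stood alone here, above the other 3 libraries. H19, an imprinted RNA that does not code for a protein, came next at 1433 TPM against 152 TPM, a ratio of 9.42 (8.40 to 10.6). For H19 the wild-type library, at 661 TPM, lay between the knockouts, and the mimic library, at 181 TPM, was near miR-26a KO.

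Genes of fat metabolism followed. Car3, a carbonic anhydrase abundant in fat and muscle, was at 429 TPM in Cart-miR-23clus KO, 71.6 TPM in miR-26a KO, 86.5 TPM in wild type and 36.6 TPM in the mimic library, giving a ratio of 5.99 (4.82 to 7.53). Lpl, which encodes lipoprotein lipase, was at 159, 28.6, 78.6 and 41.3 TPM in the same order, a ratio of 5.55 (4.53 to 6.85). Fabp4, a fatty acid carrier of fat cells and macrophages, was at 262 against 77.4 TPM (3.39, 2.56 to 4.53). For all 3 genes Cart-miR-23clus KO was the highest library of the 4. Apoe, an apolipoprotein made by macrophages and many other cells, differed in its order. It was at 405 TPM in Cart-miR-23clus KO and 337 TPM in wild type, against 103 TPM in miR-26a KO and 179 TPM in the mimic library, so that its ratio of 3.93 (3.25 to 4.77) lay mostly with a low miR-26a KO value.

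The rest of the 15 highest ratios joined blood-cell and interferon genes with a few others. C1qb (3.51), a complement subunit, Csf1r (3.21), the receptor for macrophage colony-stimulating factor, and Srgn (3.31), a granule proteoglycan, are known from macrophages and other white blood cells. Icam1 (3.26), an adhesion molecule for white blood cells, was at 79.4 against 24.3 TPM, with 24.1 TPM in the mimic library and 11.7 TPM in wild type. Isg15 (3.18), an interferon-induced ubiquitin-like protein, was at 162 against 50.8 TPM, with 113 TPM in wild type. Zwint (3.80), a kinetochore protein, was at 157 against 41.3 TPM, and its wild-type and mimic values of 30.3 and 41.2 TPM put Cart-miR-23clus KO alone on the high side. Also in this group were Wdfy1 (3.62) and Cotl1 (3.34), an actin-binding protein. The remaining gene, Gm29216 (4.98), is a pseudogene at chr1:24615706-24616197, next to the pseudogene Gm28661 at chr1:24614885-24615565, which was among the lowest ratios (0.224). Reads of pseudogenes can be shared with near-identical copies, so the values of both are uncertain.

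**Figure D2:**
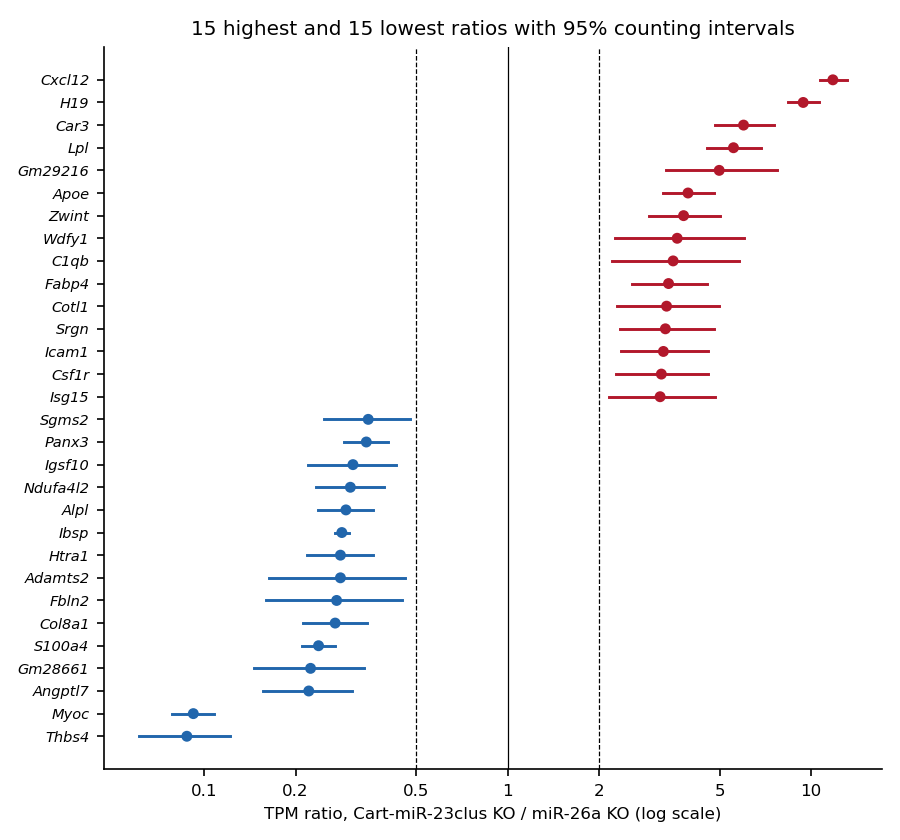
TPM ratio, Cart-miR-23clus KO over miR-26a KO (x axis, log scale), of the 15 genes with the highest and the 15 with the lowest ratio, with bars for the 95% counting interval. Cxcl12 (11.8) and H19 (9.42) stand above the other red genes, and Thbs4 (0.0876) and Myoc (0.0920) below the other blue genes.

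At the other end, Thbs4 and Myoc stood apart. Thbs4, a thrombospondin of tendon and other fibrous tissues, was at 12.5 TPM in Cart-miR-23clus KO, 143 TPM in miR-26a KO, 7.18 TPM in wild type and 89.4 TPM in the mimic library. Its ratio was 0.0876 (0.0611 to 0.122, from 38 and 435 reads). Myoc, which encodes the secreted protein myocilin, was at 86.4, 939, 17.5 and 645 TPM in the same order, a ratio of 0.0920 (0.0781 to 0.108). Both genes were high in the 2 miR-26a KO cultures and low in the other 2 libraries. The miR-26a KO cultures were also the high ones for S100a4, a calcium-binding protein of fibroblasts, at 675 against 2837 TPM, with 544 TPM in wild type and 2599 TPM in the mimic library (ratio 0.238, 0.210 to 0.269). So they were for Col8a1, a short-chain collagen, at 18.4 against 67.9 TPM (0.270), for Angptl7, a secreted angiopoietin-like protein, with 45 reads against 204 (0.221), for Fbln2, a fibulin of elastic and fibrous matrix (0.273), and for Igsf10 (0.309).

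A second group of low ratios was low in Cart-miR-23clus KO alone. Ibsp, bone sialoprotein, was at 842 TPM there against 2967 TPM in miR-26a KO, 5063 TPM in wild type and 3036 TPM in the mimic library, a ratio of 0.284 (0.269 to 0.300). Alpl, the alkaline phosphatase that mineralising cells need, was at 51.0 against 174 TPM, with 266 and 238 TPM in the other libraries (0.293, 0.237 to 0.359). Panx3 (0.342), a channel protein of hypertrophic chondrocytes and osteoblasts, and Sgms2 (0.347), a sphingomyelin synthase of bone, were likewise lowest in Cart-miR-23clus KO and highest in wild type. Htra1, a secreted serine protease that cleaves matrix, was at 57.0 against 203 TPM, with 159 TPM in wild type (0.281, 0.218 to 0.359). Adamts2 (0.281), which trims the propeptide of fibrillar procollagen, and Ndufa4l2 (0.303), a mitochondrial protein known to be induced in low oxygen, were likewise lowest in Cart-miR-23clus KO.

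**Figure D3:**
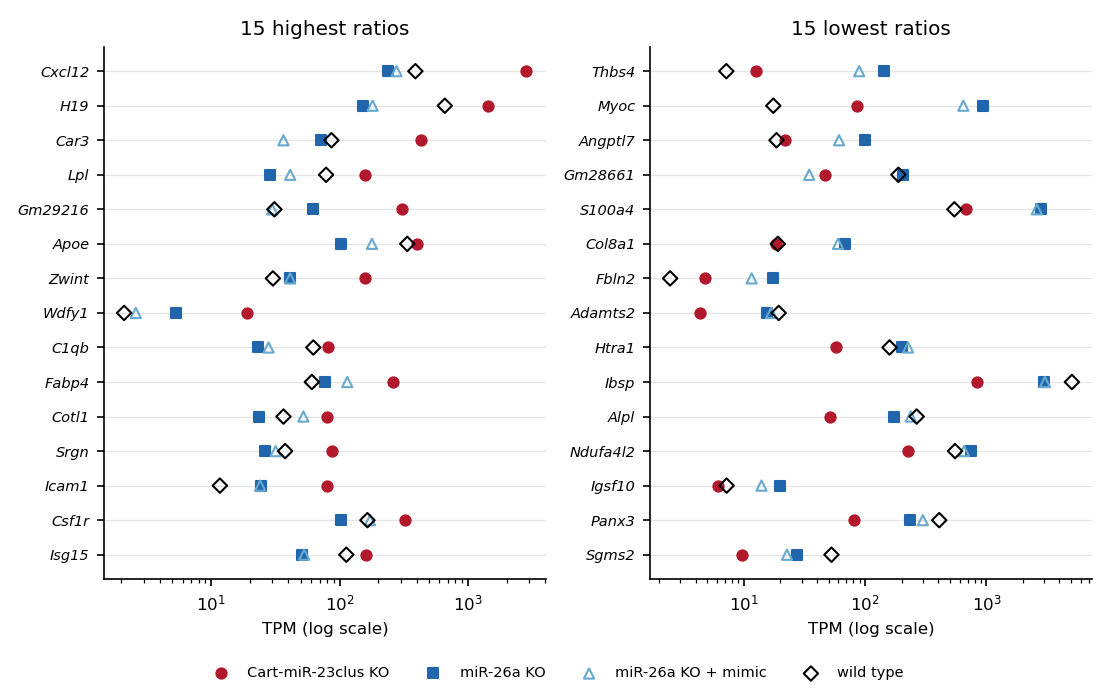
TPM (x axis, log scale) of the 15 highest and 15 lowest ratios in Cart-miR-23clus KO (red circles), miR-26a KO (blue squares), miR-26a KO with mimic (light blue triangles) and wild type (black diamonds). Thbs4, Myoc and S100a4 are high only in the 2 miR-26a KO cultures, whereas Ibsp, Alpl and Panx3 are low only in Cart-miR-23clus KO.

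Over all genes past 2-fold, the order of the 4 libraries was counted. Among the 83 genes above 2, Cart-miR-23clus KO was the highest of the 4 libraries for 79, and miR-26a KO was the lowest for 50. Wild type was nearer to miR-26a KO, on the log2 scale with 0.5 TPM added, for 48 of the 83 genes and nearer to Cart-miR-23clus KO for 35. Among the 79 genes below 0.5, Cart-miR-23clus KO was the lowest for 63, miR-26a KO was the highest for 52, and wild type was nearer to miR-26a KO for 50. These counts were not tested, since choosing genes for a large ratio between 2 libraries makes those libraries the extremes.

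Genes with under 20 reads in 1 library and 20 or more in the other numbered 524 on the Cart-miR-23clus KO side and 600 on the miR-26a KO side. Farthest from 1 by their limit on the first side were Ftl1-ps2, a ferritin pseudogene with 29 reads against 0, Esm1, a secreted proteoglycan known from endothelium, with 49 reads against 2 (of 15 endothelial markers only Eng reached 20 reads in each library, with 21 against 20), Gm5905, with 181 against 19, Adgre1, which encodes the macrophage marker F4/80, with 36 against 2, and Trim30a, an interferon-induced gene, with 29 against 2. On the second side were Gm10800, with 1 read against 155, Aqp1, a water channel, with 4 against 91, Ccdc3, with 3 against 77, Ndnf, with 2 against 43, and Igfbp6, an IGF-II binding protein, with 3 against 51. The interval of Ftl1-ps2 began at 7.39. Igfbp6 had 4 reads in wild type and 41 reads in the mimic library, and its ratio of 0.0590 (0.0118 to 0.182) rested on few reads, with the 2 miR-26a KO cultures again the high ones. Gm10800 had 176 reads in wild type and 13 in the mimic library, so that it was not high in every miR-26a KO culture.

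In absolute TPM, which weighs genes by their length, the largest differences were in abundant genes. ND4, a mitochondrially encoded subunit of complex I, was 6432 TPM higher in Cart-miR-23clus KO, at a ratio of 1.24. The metallothioneins Mt1 and Mt2, which bind zinc and copper, were 3921 and 2795 TPM higher, at ratios of 1.60 (1.54 to 1.67) and 1.65 (1.57 to 1.75), and both knockouts exceeded the wild-type values of 2352 and 1470 TPM. Penk, which encodes proenkephalin, was at 5810 TPM against 2163 TPM (2.69, 2.58 to 2.80), close to the 5644 TPM of wild type. Col1a2, a chain of type I collagen, had the largest difference downwards in TPM, at 8798 against 18146 TPM (0.485, 0.471 to 0.499). In reads, the differences of Sparc (17679 against 26116) and Col1a1 (7378 against 15172) were larger than that of Col1a2 (7096 against 14673). In TPM, next came Vim, vimentin of the cytoskeleton, at 12454 against 16830 TPM (0.740), Sparc, a collagen-binding matrix protein, at 8809 against 12980 TPM (0.679), S100a4 and Ibsp.

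Gene lists were then described by how many members had 20 or more reads in each library, how many of those were past 2-fold, and their median log2 ratio beside the -0.05 of all 6858 genes. Over all 6858 genes, 1.21% were above 2 and 1.15% below 0.5, 8.21% had a lower limit above 1 and 11.7% an upper limit below 1, and 3035 had a ratio above 1, which are the shares to set beside each count. Members that reach 20 reads in each library include fewer of those that are near 0 on 1 side. Of the 33 members of the macrophage and osteoclast list, 9 reached 20 reads in each library. Of these, 5 were above 2 (1.21% of all genes), none was below 0.5, and the median log2 ratio was 1.28. Set against the mimic library, the other miR-26a KO culture, the same 9 genes had a median of 0.40, whereas that of the adipocyte list was 0.69 against miR-26a KO and 0.73 against the mimic library. Lyz2, lysozyme of macrophages, was at 507 TPM in Cart-miR-23clus KO, 177 TPM in miR-26a KO, 518 TPM in wild type and 296 TPM in the mimic library (ratio 2.86, 2.45 to 3.35). The summed TPM of the whole list was 2094 in Cart-miR-23clus KO against 850 in miR-26a KO, with 1493 in wild type and 1371 in the mimic library, so that miR-26a KO was the lowest of the 4. C1qc (76 reads against 12), Fcer1g (78 against 13) and Trem2 (28 against 6) reached 20 reads only in Cart-miR-23clus KO, which fixes their direction, and are given as values alone. The defining markers Ptprc and Spi1 were at 5 and 4 reads in Cart-miR-23clus KO and at 0 in miR-26a KO. The part of macrophages in the higher Apoe, Lpl, Fabp4 and Spp1 was not tested, and in whole cultures fewer cells of a type and less RNA per cell cannot be told apart. Among the osteoclast members, Ctsk, the collagen-degrading cathepsin K, had a ratio of 1.32 (1.11 to 1.57) and Acp5, tartrate-resistant phosphatase, had 26 reads against 7.

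The adipocyte list had 13 of 24 members with 20 reads in each library, at a median log2 ratio of 0.69. It was 1.15 over the 19 members with a mean of at least 1 TPM, with 0.5 TPM added. Of the 13, 6 were above 2 and none below 0.5. Beyond Car3, Lpl, Apoe and Fabp4 these were Plin4, which coats lipid droplets (2.75, 2.18 to 3.49), and Pparg, the transcription factor that drives fat cell formation (2.62, 1.84 to 3.80). Pparg was at 57.0 TPM in Cart-miR-23clus KO and between 17.1 and 21.8 TPM in the other 3 libraries. The list was not uniform. Lipid synthesis genes Fasn (0.982) and Scd1 (0.637) were not higher, and the hormone gene Adipoq had 9 reads against 1, Plin1 had 1 against 0, and Cidec, Retn and Lep had 0 in both. The summed TPM was 1634 in Cart-miR-23clus KO against 548 in miR-26a KO, against 851 in wild type and 676 in the mimic library.

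Most of the interferon and antigen presentation genes compared had a ratio above 1, although the interval held 1 for 10 of them. Of 19 members with 20 reads in each library, 17 had a ratio above 1, 9 had a lower limit above 1 (8.21% of all genes) and 3 were above 2 (1.21% of all genes), namely Isg15, Tap2 (3.16), a peptide transporter, and Rtp4 (2.91). No member was below 0.5, and the median log2 ratio was 0.43. B2m, the light chain of MHC class I, was at 4916 TPM against 3386 TPM (1.45, 1.38 to 1.52), with 3677 and 3679 TPM in wild type and the mimic library. H2-K1, an MHC class I heavy chain, had a ratio of 1.54 (1.33 to 1.77).

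The IGF axis and imprinted genes had 17 members with enough reads, of which 3 were above 2 and none was below 0.5, with a median log2 ratio of 0.42. Mest, an imprinted gene of growing tissue, was at 3094 TPM in Cart-miR-23clus KO, 1039 TPM in miR-26a KO, 2759 TPM in wild type and 1365 TPM in the mimic library (2.98, 2.63 to 3.38). Its 2 miR-26a KO cultures were the low ones. Dlk1, a Notch-like protein of immature cells, showed another order, at 347, 126, 25.8 and 101 TPM (2.76, 2.13 to 3.61), where wild type was the lowest. Igf1 itself was at 117 against 61.2 TPM (1.91, 1.45 to 2.53), Peg3 had a ratio of 1.75, and Igf2 had 0 reads in both.

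Of 16 members of the osteoblast and bone matrix list with 20 reads in each library, 5 were below 0.5 (Ibsp, Alpl, Sgms2, Col1a1 and Col1a2) and 1 was above 2, at a median log2 ratio of -0.45. The median was -0.74 over the 23 members with a mean of at least 1 TPM, with 0.5 TPM added. Col1a1, the partner of Col1a2 in type I collagen, was at 1311 TPM in Cart-miR-23clus KO, 2690 TPM in miR-26a KO, 6328 TPM in wild type and 3194 TPM in the mimic library (0.488, 0.474 to 0.501). Osteocalcin genes Bglap and Bglap2 had 15 reads against 55 and 16 against 81, and as they reached 20 reads only in miR-26a KO their direction is no support for that of the list. Sp7, the osteoblast transcription factor osterix, had a ratio of 0.592 (0.407 to 0.853). Of the 16 members, 4 had a ratio above 1, namely Spp1, Smoc1 (1.48), Cdh11 (1.28) and Ank (1.16), and 7 had an interval that held 1. Spp1, osteopontin, which osteoclasts and macrophages also make, was at 1613 against 675 TPM (2.39, 2.21 to 2.59). Wild type held the highest summed TPM of the list, 47494, against 21928 in Cart-miR-23clus KO against 38529 in miR-26a KO.

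The fibroblast and tenocyte list had a median log2 ratio of -0.52 over 20 members (-0.39 against the mimic library), of which 4 were below 0.5 (Thbs4, S100a4, Fbln2 and Col12a1) and none was above 2. The collagens of fibrous tissue Col3a1 (0.633), Col5a1 (0.625) and Col5a2 (0.577) were lower in Cart-miR-23clus KO, whereas Col6a3 was higher (1.48, 1.36 to 1.60) and Fn1, fibronectin, was level (1.01, 0.992 to 1.03). Scx, the tendon transcription factor, had a ratio of 0.879 (0.640 to 1.20), and Tnmd, a defining marker of tenocytes, had 1 read in each library. The summed TPM was 5054 in Cart-miR-23clus KO against 8124 in miR-26a KO, with S100a4 alone at 675 against 2837. Thbs4 and S100a4 are members of the list that were named for their low ratios, so the sum holds their difference by construction. The part of other cell types in those ratios was not tested.

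**Figure D4:**
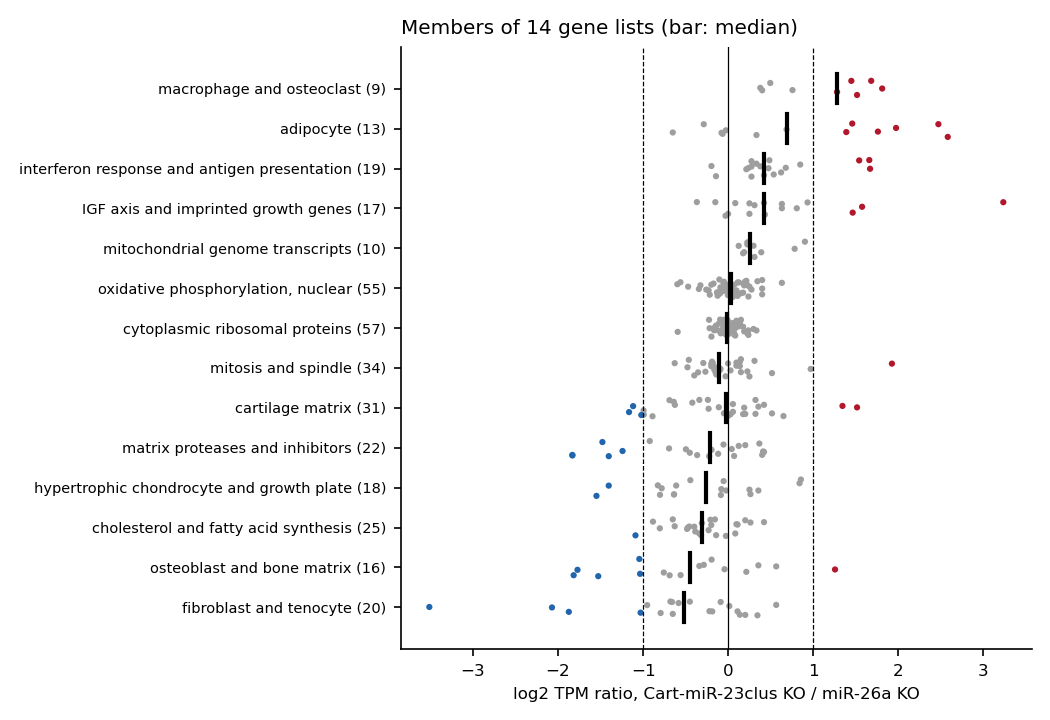
Log2 TPM ratio, Cart-miR-23clus KO over miR-26a KO (x axis), of each member with 20 or more reads in both libraries in 14 gene lists, with the number of such members in brackets and black bars for medians. Medians run from 1.28 for macrophage and osteoclast genes to -0.52 for fibroblast and tenocyte genes, and cytoplasmic ribosomal proteins centre at -0.02 (-0.02 to 0.03 under other scalings).

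Cartilage matrix genes split. Of 31 members with 20 reads in each library, 10 had a lower limit above 1 and 13 an upper limit below 1, beside 8.21% and 11.7% of all genes. Many members had deep coverage: of the 15 with 500 or more reads in each library, 11 had an interval that left out 1, beside 58.2% of all genes at that depth. Among the 31, the median log2 ratio of -0.03 (-0.04 to 0.01 under other settings) lay between differences in opposite directions. Matn4 (2.86, 2.27 to 3.63), a matrilin that links matrix fibres, and Col9a2 (2.54, 2.20 to 2.94), a chain of the type IX collagen that decorates cartilage fibrils, were above 2. Acan, the aggrecan core protein, was at 592 against 472 TPM (1.25, 1.20 to 1.31). Lower in Cart-miR-23clus KO were Chad (0.446), Cytl1 (0.461) and Matn2 (0.493), and short of 2-fold the proteoglycans Prelp (0.502), Lum (0.540) and Dcn (0.620) and the joint lubricant gene Prg4 (0.642, 0.535 to 0.770). Chad, Cytl1 and Prg4 were higher in both miR-26a KO cultures than in wild type. Cytl1, for example, was at 230 TPM in miR-26a KO and 277 TPM in the mimic library, against 35.4 TPM in wild type and 106 TPM in Cart-miR-23clus KO.

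Hypertrophic and growth plate genes had a median log2 ratio of -0.26 over 18 members (-0.49 over 20 with a mean of at least 1 TPM, 0.5 TPM added). Those below 0.5 were Panx3 and Mmp13, collagenase 3. Pth1r, the receptor for parathyroid hormone-related protein, was at 193 TPM in Cart-miR-23clus KO, 336 TPM in miR-26a KO, 712 TPM in wild type and 504 TPM in the mimic library (0.574, 0.506 to 0.650). Col10a1, the collagen that defines hypertrophic cells, ran the other way at 49.8 against 27.5 TPM (1.81, 1.37 to 2.40), so no single direction described the list.

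Matrix proteases and their inhibitors had 5 of 22 members below 0.5 and none above 2, at a median log2 ratio of -0.21. Mmp13 was at 330 TPM in Cart-miR-23clus KO, 871 TPM in miR-26a KO, 507 TPM in wild type and 925 TPM in the mimic library (0.378, 0.349 to 0.410). Adamts5, an aggrecanase, was at 3.32, 9.25, 5.59 and 8.46 TPM in the same order (0.359, 0.235 to 0.536). For both genes Cart-miR-23clus KO was below wild type and both miR-26a KO cultures were above it. Htra1 and Adamts2 were also below 0.5. The inhibitors Timp2 (0.777) and Timp3 (0.732) were lower, and Timp1 (1.33, 1.23 to 1.44) was higher in Cart-miR-23clus KO.

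Of the targets and osteoarthritis genes that the study names, 10 had 20 reads in each library. Beside Mmp13 and Adamts5, Cdkn2a, which encodes the cell-cycle inhibitor p16, was below 0.5, at 100 TPM against 248 TPM (0.404, 0.308 to 0.525), with 169 TPM in wild type. Smad3 (0.820, 0.604 to 1.11), Runx2 (0.735, 0.454 to 1.18) and Mdm4 (0.941, 0.615 to 1.44) had intervals that held 1. Il6, Nos2 and Lep had 0 reads in both. Host genes gave no direct check of the deletions: Aopep, which hosts the miR-23b cluster, had a ratio of 1.37 (1.15 to 1.64), and the hosts of miR-26a, Ctdspl and Ctdsp2, had ratios of 0.975 (0.834 to 1.14) and 0.802 (0.663 to 0.970).

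The 2 knockouts differ in the seeds they lost, so the ratio was next set beside seed matches in annotated 3′ UTRs. The searched letters were AATGTGA for miR-23, ACTGTGA for miR-27, CTGAGCC for miR-24 and TACTTGA for miR-26a, on the transcript strand only, in the longest 3′ UTR of each protein-coding gene in GENCODE M21. Among 20655 UTRs of 50 bases or more, these letters were held by 15.4%, 16.3%, 16.5% and 9.84%, and among the 6623 compared genes with such a UTR by 17.7%, 18.3%, 19.3% and 12.5%. A match is a description and not a site of action, and reads at 3′ ends do not tell which UTR a cell uses.

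Of the 15 highest ratios, 13 genes had a UTR, 6 of these held a match for miR-23, miR-27 or miR-24, 1 (Zwint) also held a match for miR-26a, and 7 held no match for any of the 4 seeds. Over all 6623 compared genes with a UTR, 42.0% held a match for miR-23, miR-27 or miR-24 and 53.5% held none for any, so the counts among the highest ratios were near the shares of all genes. Of the 15 lowest, 14 had a UTR, none held a miR-26a match, and Igsf10 alone held a match for the other seeds. Matches of genes with high ratios, and that of Igsf10, are shown with the 7 matching bases in capitals, 14 bases before them and 1 base after them, as DNA of the transcript strand on GRCm38.p6. Pparg, an established target of miR-27, and Col1a2, the gene with the largest TPM difference downwards, which holds a miR-26a match, are shown for comparison. The Cxcl12 sites are at chr6:117181179-117181200 (miR-23) and chr6:117176483-117176504 (miR-24), those of Lpl at chr8:68906332-68906353 (miR-27), chr8:68906399-68906420 (miR-23) and chr8:68906801-68906822 (miR-24), those of Zwint at chr10:72669256-72669277 (miR-27) and chr10:72669628-72669649 (miR-26a), that of Icam1 at chr9:21028115-21028136, that of Pparg at chr6:115490269-115490290 and that of Col1a2 at chr6:4541188-4541209, all on the plus strand. On the minus strand are the Wdfy1 sites at chr1:79703592-79703613 (miR-23) and chr1:79703633-79703654 (miR-24) and the Igsf10 site at chr3:59318299-59318320.
Cxcl12, miR-23: tctgtctcccagatAATGTGAa
Cxcl12, miR-24: agcattgccccgagCTGAGCCc
Lpl, miR-27: agctgggagcagaaACTGTGAa
Lpl, miR-23: tgtagtcgtcattcAATGTGAt
Lpl, miR-24: gattgtctgtctcaCTGAGCCa
Zwint, miR-27: ttagcctgccaaggACTGTGAg
Zwint, miR-26a: tgtgctttcattttTACTTGAc
Wdfy1, miR-23: aaaagcatctgtaaAATGTGAc
Wdfy1, miR-24: cctgtggaatagtgCTGAGCCa
Icam1, miR-27: gtggatggagcaagACTGTGAa
Pparg, miR-27: cacctaagaaatttACTGTGAa
Igsf10, miR-27: ttgtaaataaatgcACTGTGAa
Col1a2, miR-26a: agtagtatttcagaTACTTGAa
Cxcl12 (ratio 11.8), Lpl (5.55), Wdfy1 (3.62), Icam1 (3.26) and Pparg (2.62) each held a match followed by A, the base that completes the 8-base match. Of all 6623 genes, 7.70% held an 8-base match for miR-23, 6.18% for miR-27 and 8.62% for miR-24. No 8-base match for any of the 4 seeds was held by 76.5%. Zwint (3.80), with 1 match for miR-27, 2 for miR-24 and 1 for miR-26a, and Csf1r (3.21), with 2 for miR-24, held none followed by A, and Igsf10 with an 8-base miR-27 match had a ratio of 0.309. The miR-23 match of Cxcl12 lay 168 bases before the end of a UTR of 5188 bases. Adamts5, with a ratio of 0.359, held 2 matches for miR-23, 1 for miR-27 and 1 for miR-24. Of these, 1 for miR-23 and 1 for miR-27 were followed by A. Mmp13, Thbs4, Myoc, S100a4 and Ibsp held none for any of the 4 seeds.

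Across all genes, the classes were ordered but close together. The 3542 genes with no match had a median ratio of 0.955. The 2255 genes with a match for miR-23, miR-27 or miR-24 and none for miR-26a had a median ratio of 0.986, and 37 of them (1.64%) were above 2 while 13 (0.576%) were below 0.5. The 299 genes with a miR-26a match and none for the others had a median ratio of 0.930, and none was above 2 while 4 (1.34%) were below 0.5, a share like the 1.33% of genes with no match. The 527 genes with matches for both had a median ratio of 0.956, and 7 of them (1.33%) were above 2 while 10 (1.90%) were below 0.5, the largest share below 0.5 of these classes. The quartiles of the log2 ratio overlapped widely, at -0.28 and 0.14 with no match, -0.26 and 0.22 with a match for the clusters, and -0.32 and 0.08 with a match for miR-26a. Among single seeds, the median log2 ratio was 0.001 for miR-23, -0.016 for miR-27, -0.033 for miR-24 and -0.082 for miR-26a. With an 8-base match in place of 7 bases it was 0.046 for the 510 genes with a miR-23 match, 0.004 for miR-27, -0.032 for miR-24 and -0.096 for miR-26a.

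UTR length moved with these classes and with the ratio. The genes were split into 3 groups of about equal size by UTR length. Among the shortest UTRs, 50 to 791 bases, the median ratio was 0.968 with no match, 1.00 with a cluster match and 0.957 with a miR-26a match. In the middle group it was 0.949, 1.00 and 0.964, where the miR-26a class was not below the class with no match. Among the longest, from 1988 bases, it was 0.924, 0.975 and 0.882. The class with matches for both had medians of 0.875, 0.946 and 0.960, from the shortest to the longest, below the class with no match in the first 2 groups and above it in the longest. These medians rest on 13, 94 and 420 genes, and those of the miR-26a class on 48, 123 and 128. The class with no match had 1837, 1192 and 513 genes. The part of UTR length and base composition in these medians was not tested.

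**Figure D5:**
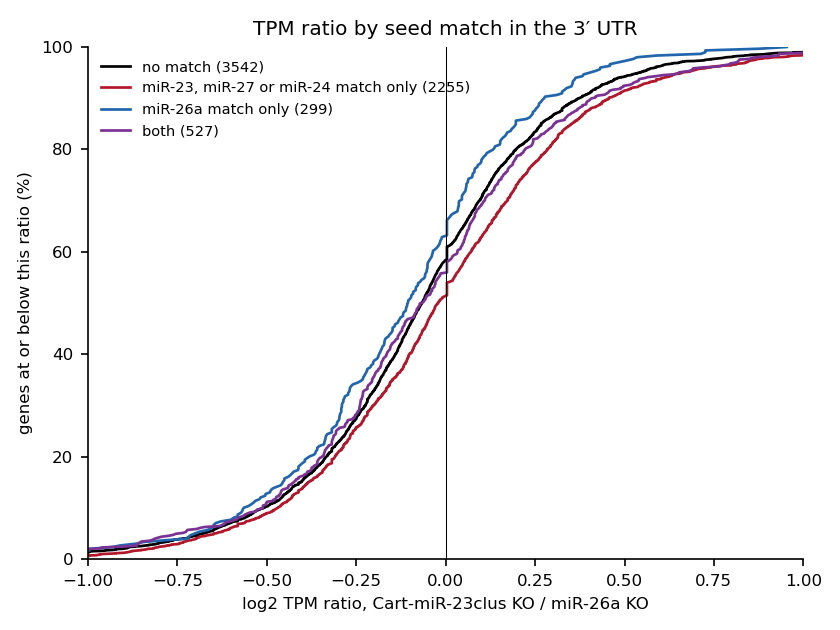
Share of genes (y axis, percent) at or below each log2 TPM ratio, Cart-miR-23clus KO over miR-26a KO (x axis), for genes with no match (3542), with a match for miR-23, miR-27 or miR-24 only (2255), for miR-26a only (299) and for both (527). The red curve lies to the right of the black one and the blue curve to the left through most of the range, with median ratios of 0.986, 0.955 and 0.930.

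Lists of targets known from the literature were described last. Of 21 members of the miR-23, miR-27 and miR-24 list with 20 reads in each library, 13 had a ratio above 1, 3 were above 2 (Cxcl12, Lpl and Pparg) and 1 was below 0.5 (Mmp13), at a median log2 ratio of 0.29. Tgfbr3, a TGF-beta co-receptor (1.82, 1.28 to 2.63), and Cyp1b1 (1.78, 1.35 to 2.35) were higher short of 2-fold, and Foxo1, a transcription factor, was lower (0.606, 0.452 to 0.809). The list of miR-26 targets had 18 such members, of which 5 had a ratio above 1, none was above 2, Col1a2 was below 0.5, and the median log2 ratio was -0.13. Among them Ccnd2, cyclin D2, was at 589 against 731 TPM (0.805, 0.770 to 0.842), and Ccn2, a matricellular growth factor, at 792 against 1104 TPM (0.718, 0.675 to 0.763). Wild type was at 644 TPM for Ccnd2, between the knockouts, and at 1456 TPM for Ccn2, above both. Igf1, also on that list, went the other way with a ratio of 1.91.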

How the data were processed

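RNA of cultured mouse articular chondrocytes was measured in 4 QuantSeq libraries, 1 per condition, and 2 were compared. The authors mapped reads to mm10 (GRCm38.p6 in the submitters' processing notes); the aligner, counting tool and annotation are not given in the sources used here. The deposited estimated count of a gene is its number of reads, whole and not normalized. The deposited TPM values were made by the authors from these reads, gene length and library total. Length scaling does not suit 3′ reads between genes but cancels in a ratio, which was 1.002525 times the ratio of reads for each gene. Reads of the mimic library were recovered from its TPM values, all 14429 tested being whole within 0.05. For another 588 genes with TPM above 0 in that library, no reads could be recovered.

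Genes were named by rule: the 15 highest and 15 lowest ratios, 5 genes a side with under 20 reads in 1 library, 5 a side by TPM difference, the 4 members of each list with the largest absolute log2 ratio with its defining markers, and genes named by the study. Others named here were chosen after their values were seen. Members and the 36 gene lists were chosen with earlier results of these data known. No test between conditions was possible, so intervals (Clopper-Pearson, 95%) cover counting error only, and PCR reads without molecular identifiers are not independent molecules. The interval step was tested on simulated data. Alternatives were CPM, edgeR 4.0.16 TMM and DESeq2 1.42.0 size factors, other read minimums, for list medians a mean of at least 1 TPM with 0.5 TPM added, the mimic library in place of miR-26a KO, and 8-base seed matches. Where the files lack a gene name, GENCODE M21 gave it by identifier. Python 3.11.15, scipy 1.17.1 and R 4.3.3 were used. Some genes that the rule names are not reported here.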

Additional observations from a re-analysis of the deposited data

How the results depend on the processing

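The read minimum moved the counts past 2-fold most. With 10 or more reads in each library, 192 genes were above 2 and 189 below 0.5 of 8830. With 50 or more, 27 and 29 of 4028 were. With no minimum but TPM above 0 in both, 1369 and 893 of 13595 were, many of them on a few reads. Scaling by CPM, by TMM in edgeR or by size factors in DESeq2 gave from 76 to 93 genes above 2 and from 64 to 79 below 0.5. Asking also for an interval that leaves out 1 could change neither count, since at 20 or more reads every ratio past 2-fold has such an interval. The mimic library in place of miR-26a KO gave 79 and 94 of 6960 genes. Of these, 39 genes were above 2 against both libraries (47.0% of the 83, 49.4% of the 79). Below 0.5 against both were 44 genes (55.7% of the 79, 46.8% of the 94). These scalings multiply every ratio by 1 factor, at most 1.032743 on the ratio of reads, and took 7 of 192 ratios of named genes, all of abundant genes, outside their own counting interval. Col2a1 was at 1.00 under CPM and 1.01 under TMM. The sign of the list median depended on the setting for 4 lists near 0, which were cartilage matrix (-0.04 to 0.01), contractile smooth muscle, p53 and senescence, and cytoplasmic ribosomal proteins. Among seed classes the sign of the median did so for genes with a match for the clusters alone, genes with a miR-27 match, genes with 3 or more cluster matches and genes with 2 or more miR-26a matches. No paired analysis was possible because only 1 library represents each condition, and no replicate could be left out for the same reason. Depth limits the genes with few reads: an interval from 20 and 63 reads, as for Tap2, ran from 1.88 to 5.51.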

Other observations

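Mitosis and spindle genes had a median log2 ratio of -0.11 over 34 members, of which Zwint alone was above 2, and DNA replication genes had 0.12 over 20 members with none past 2-fold. Of 17 genes of NF-κB and inflammation with 20 reads in each library, Cxcl12 and Icam1 were above 2, and the interleukin-1 receptor antagonist Il1rn had a ratio of 1.96 (1.37 to 2.84), while the list median was 0.15. Of 28 genes of the TGF-beta and BMP pathways, 24 had a ratio below 1, 9 had an upper limit below 1 (11.7% of all 6858 genes) and 2 a lower limit above 1 (8.21% of all genes). Bmp1, the procollagen C-proteinase, had a ratio of 0.490 (0.280 to 0.833) and Tgfbr2, the type II TGF-beta receptor, 0.562 (0.431 to 0.728). Of 16 genes of the Wnt list, 11 had a ratio below 1, 6 an upper limit below 1 and 2 a lower limit above 1, with a median of -0.27. The secreted Wnt binders Sfrp2 (2.33, 1.47 to 3.77) and Wif1 (0.527, 0.434 to 0.637) differed in opposite directions. Cholesterol and fatty acid synthesis genes had a median of -0.31 over 25 members, 19 with a ratio below 1, 7 with an upper limit below 1 and none with a lower limit above 1.

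Of 15 mitochondrially encoded transcripts, 10 had 20 reads in each library, and all 10 had a lower limit above 1, beside 8.21% of all genes. Their ratios ran from 1.09 (ND5) to 1.87 (COX2), and the summed TPM of the list was 67233 against 54464. Coverage was deep: 8 of the 10 had 500 or more reads in each library. At that depth 58.2% of all genes had an interval that left out 1. The 55 nuclear genes of oxidative phosphorylation had a median log2 ratio of 0.03, with 6 lower limits above 1 and 4 upper limits below 1, near the 8.21% and 11.7% of all genes. Cytoplasmic ribosomal protein genes had a median of -0.02 over 57 members, with none past 2-fold. Of these, 13 had a lower limit above 1, 8 an upper limit below 1, and 36 an interval that held 1. With 500 or more reads in each library, 13 of 41 members had an interval that left out 1, beside 58.2% of all genes. The gene listed under both Rpl34-ps1 and Rpl34 had an upper limit below 1, and its reads may be shared with a pseudogene. In the p53 and senescence list Cdkn1a, the cell-cycle inhibitor p21, was at 587 against 932 TPM (0.631, 0.565 to 0.703), and Lmnb1, lamin B1, at 20.8 against 11.1 TPM (1.87, 1.18 to 3.02), beside the lower Cdkn2a. Of 28 antioxidant genes, 20 had a ratio above 1, 9 a lower limit above 1 and 2 an upper limit below 1, beside 8.21% and 11.7% of all genes. Those past 2-fold, G6pdx of the pentose phosphate pathway (2.01, 1.45 to 2.80) and Slc7a11, a cystine importer (0.436, 0.244 to 0.752), were on opposite sides. Collagen folding genes had a median of -0.12 over 44 members, the lowest being Creb3l1, a transcription factor of the secretory pathway (0.490, 0.416 to 0.576). Integrin Itga11, a collagen receptor, had a ratio of 0.396 (0.276 to 0.559). All 13 genes of microRNA processing with enough reads had intervals that held 1, and among them Dicer1 had a ratio of 0.902 (0.613 to 1.33). Acta2, smooth muscle actin, was the only member of the contractile list above 2, and that list had a median of -0.13 over 11 members (-0.13 to 0.07 under other settings). Immediate early genes had a median of 0.23 over 16 members, with 5 lower limits above 1 and 1 upper limit below 1. Glycolysis genes had -0.07 over 22 members, with 2 lower limits above 1 and 6 upper limits below 1, beside 8.21% and 11.7% of all genes. The 5 CCN matricellular genes with enough reads were on both sides, with Ccn3 (1.50) and Ccn1 (1.31) above 1 and Ccn2, Ccn5 (0.556) and Ccn4 (0.512) below it.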
